A study of Mus musculus with 96 samples.

Results

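The fasting effect on open chromatin of mouse hepatocytes was compared between a fast of 24 h and one of 3 h. For each peak the difference between fasted and fed mice at 3 h was subtracted from the difference between fasted and fed mice at 24 h, on the scale of log2 of normalized reads plus 2, and 46827 of 46832 peaks, those with enough reads, were tested. The 16 mice, of 96 samples in the series, fell into 4 groups of 4 female HEP-INTACT mice: fasted for 24 h, fed ad libitum and taken at 24 h, fasted for 3 h, and fed ad libitum and taken at 3 h. Fasting began at ZT12 (zeitgeber time, hours after lights on), so the 24 h mice were taken at ZT12 and the 3 h mice at ZT15. All of the mice, fed ones included, carry the INTACT tag, with which nuclei of a labelled cell type are captured on beads; the driver of the tag and the strain and age of the mice are not given in the sources used here. The length of the fast and the time of day change together between 3 h and 24 h, and their parts in a difference cannot be told apart.

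ATAC-seq counts DNA fragments cut out of open chromatin, so a peak marks a stretch such as a promoter or an enhancer. In the liver, a fast lowers insulin and raises glucagon and glucocorticoids. Hepatocytes then break down glycogen, oxidize fatty acids, make ketone bodies and glucose, and shut down the synthesis of fat and cholesterol. Mice eat mainly in the dark, and many liver genes also follow the clock.

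The fasting effect was higher at 24 h than at 3 h at 5111 peaks (10.9%) and lower at 2586 peaks (5.52%), at an adjusted p under 0.05 in limma. Of these, 595 peaks (1.27%) were higher by at least 1 and 1500 peaks (3.20%) were lower by at least 1, a change of at least 2-fold in the ratio of fasted to fed. Large differences ran mostly downward, also under each of the 11 alternatives tried. Over all passing peaks the higher ones made up 66.4% of calls as deposited, 54.1% after median centring, 45.8% after quantile normalization, 31.1% in edgeR with TMM and 32.3% in DESeq2. The count of higher peaks was 3211 without the second fed 3 h mouse and 3232 without the fourth fasted 24 h mouse. A peak is called opened where fasted mice had more reads than fed mice and closed where they had fewer, and it is named by the gene of the nearest transcription start site (TSS) in mm10, which does not show that it regulates that gene. Each peak is 200 bp wide, differences and effects are log2 values ± SE, and levels are normalized reads.

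The upstream sequences of 5 genes with a named peak at the start site are shown because the fasting effect at these promoters differed between the times; none of them was late closed, transiently closed, or opened and then closed. They are RefSeq sequences of GRCm38.p6, the assembly of mm10, and each gives the 250 bases before the start of the gene, in the direction of the gene. For Mt2, a metallothionein that binds zinc, capitals mark the core of the metal response element (TGCACNC or TGCGCNC, either strand). It lies at chr8:94172368-94172617 on the plus strand, and the peak there was opened at 3 h and, with all mice, not called at 24 h.
Mt2: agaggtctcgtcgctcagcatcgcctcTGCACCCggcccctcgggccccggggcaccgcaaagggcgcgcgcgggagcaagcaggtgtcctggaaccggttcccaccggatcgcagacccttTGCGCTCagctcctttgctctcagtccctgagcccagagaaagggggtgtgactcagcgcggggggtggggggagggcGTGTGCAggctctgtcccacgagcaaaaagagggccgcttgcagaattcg
For Atf4, a transcription factor of the amino acid and stress response (chr15:80254934-80255183, plus strand), and Trp53, the gene of p53 (chr11:69580109-69580358, plus strand), capitals mark the CCAAT box on either strand. Both peaks were closed at 3 h and opened at 24 h.
Atf4: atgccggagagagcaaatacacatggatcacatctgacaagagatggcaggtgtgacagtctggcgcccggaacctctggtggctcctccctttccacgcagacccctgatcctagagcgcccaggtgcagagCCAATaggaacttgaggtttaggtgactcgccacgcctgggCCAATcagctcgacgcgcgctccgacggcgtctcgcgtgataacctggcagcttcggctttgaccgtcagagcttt
Trp53: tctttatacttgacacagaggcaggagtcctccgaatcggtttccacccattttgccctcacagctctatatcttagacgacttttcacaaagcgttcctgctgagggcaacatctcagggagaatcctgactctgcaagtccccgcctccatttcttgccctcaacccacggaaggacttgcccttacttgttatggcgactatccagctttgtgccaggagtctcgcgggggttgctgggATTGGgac
The start sites of Mpc2, a subunit of the mitochondrial pyruvate carrier (chr1:165461010-165461259, plus strand), and of Ctsd, the lysosomal protease cathepsin D (chr7:142387828-142388077, minus strand), were opened at 24 h and not called at 3 h. Capitals mark the CCAAT box in Mpc2 and the E-box CACGTG in Ctsd.
Mpc2: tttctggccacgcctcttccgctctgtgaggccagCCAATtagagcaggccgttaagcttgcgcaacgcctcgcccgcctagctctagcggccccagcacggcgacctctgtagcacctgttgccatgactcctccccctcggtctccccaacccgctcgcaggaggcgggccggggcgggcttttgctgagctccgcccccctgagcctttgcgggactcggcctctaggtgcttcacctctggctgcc
Ctsd: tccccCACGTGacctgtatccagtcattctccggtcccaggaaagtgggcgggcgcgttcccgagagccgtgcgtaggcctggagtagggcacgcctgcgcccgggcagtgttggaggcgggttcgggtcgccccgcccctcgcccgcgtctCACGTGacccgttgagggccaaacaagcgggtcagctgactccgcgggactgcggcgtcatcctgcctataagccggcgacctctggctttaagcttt

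Reads in hepatocyte peaks ran from 2976610 to 6098645 per mouse over the 16 mice. The median log2 level per mouse ran from 5.70 to 5.83. Of the 14 hepatocyte markers, 13 had a tested peak, whose summed reads ran from 8522 to 9597 in fasted and from 7373 to 7859 in fed mice at 24 h, and from 7439 to 8712 in fasted and from 7096 to 7851 in fed mice at 3 h. Among markers of other cells, 2 of 14 macrophage genes had a tested peak (summed reads 111 to 164 over the 16 mice), as did 7 of 14 endothelial, 4 of 10 cholangiocyte, 3 of 14 lymphocyte and 1 of 13 stellate genes. Summed reads were 618 to 753 over 13 endothelial peaks, 495 to 579 over 12 cholangiocyte peaks and 613 to 784 over 9 lymphocyte peaks. The hepatocyte markers had 122 peaks. The stellate peak had 21 to 48 reads in fasted and 37 to 45 in fed mice at 24 h, and 51 to 69 in fasted and 10 to 25 in fed mice at 3 h; its part in other results was not tested. In nuclei pooled by mouse, fewer nuclei of a kind and less open chromatin per nucleus cannot be told apart. The second fasted 3 h mouse lay nearest to the fed mice: over the 2346 peaks with a 3 h effect of at least 1 it deviated from its group mean by -0.27 along the effect, against 0.20, 0.12 and -0.05 in the others. Without it 3946 peaks were higher and 2322 were lower.

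Peaks that passed were sorted by what fasting did at each time. Fasting opened 11867 peaks (25.3%) and closed 5315 (11.4%) at 24 h, and opened 5292 (11.3%) and closed 4844 (10.3%) at 3 h. Of the peaks with a lower effect at 24 h, 954 were opened at 3 h and not called at 24 h (516 of them by a difference of at least 1), 1178 were closed at 24 h and not called at 3 h (712 large), and 180 were opened at 3 h and closed at 24 h (169 large). Of those with a higher effect, 970 were closed at 3 h and not called at 24 h (315 large), 3473 were opened at 24 h and not called at 3 h (153 large), and 254 were closed at 3 h and opened at 24 h (101 large). A further 168 passing peaks were opened or closed in the same direction at both times, and 382 higher and 138 lower ones were called at neither. After median centring the late opened peaks numbered 1968. All these peaks passed the test of the difference itself.

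**Figure D1:**
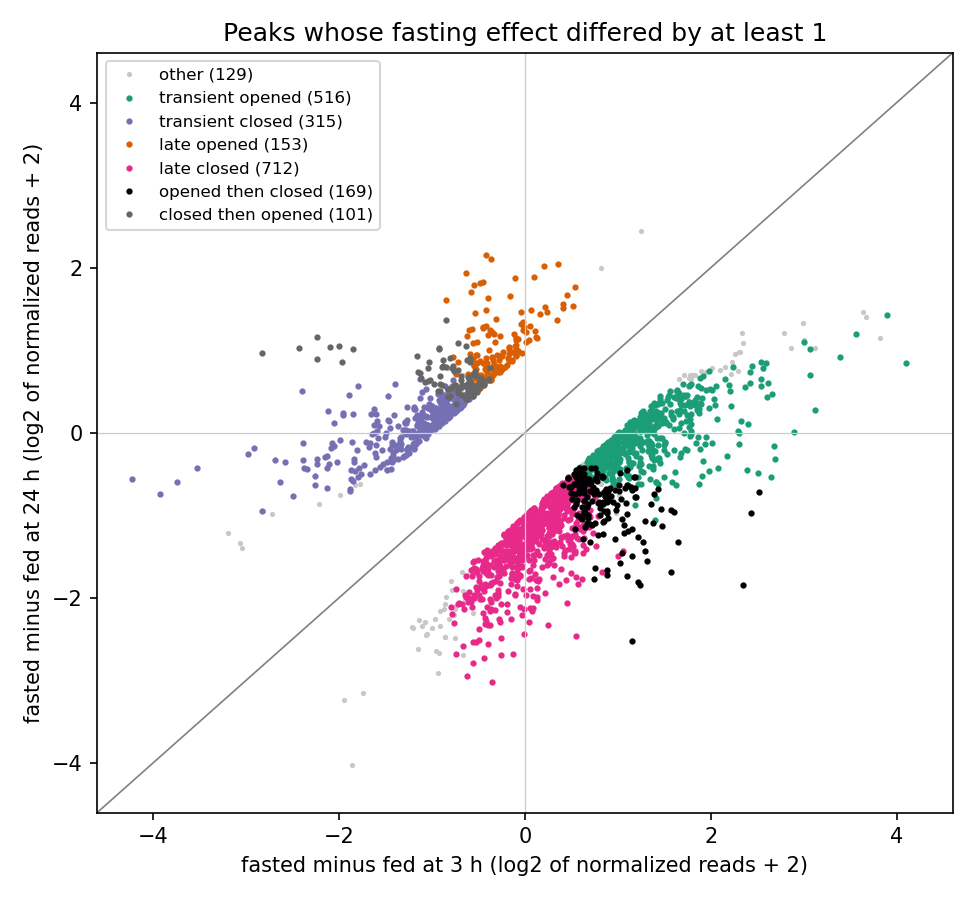
Fasting effect at 3 h (horizontal) and at 24 h (vertical), log2 of normalized reads plus 2, for the 2095 peaks whose effect differed by at least 1; the diagonal line marks equal effects, and colours mark the pattern. The 516 transiently opened and 712 late closed peaks fill the area under the line.

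The levels at 8 h and 16 h had no part in the sorting, but the spread among those mice entered the tests behind it. The early openings were still seen at 8 h: of the 954 transiently opened peaks, 559 were opened and 11 closed at 8 h, where 20.3% of all tested peaks were opened and 13.7% closed. By 16 h, 145 of them were opened and 160 closed, when 19.0% of all tested peaks were opened and 12.8% closed. The late closings were largely in place by 16 h: 456 of the 1178 were closed at 8 h and 773 at 16 h, with 67 and 15 opened. Of the 3473 late opened peaks, 617 were opened at 8 h and 1434 at 16 h. The median effect of the transiently opened peaks was 0.93 at 3 h, 0.59 at 8 h, -0.03 at 16 h and -0.10 at 24 h, and that of the late closed peaks was 0.10, -0.35, -0.72 and -1.002 at the same times. The difference of 24 h from 8 h passed at 3427 peaks (7.32%) and that from 16 h at 1492 (3.19%).

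**Figure D2:**
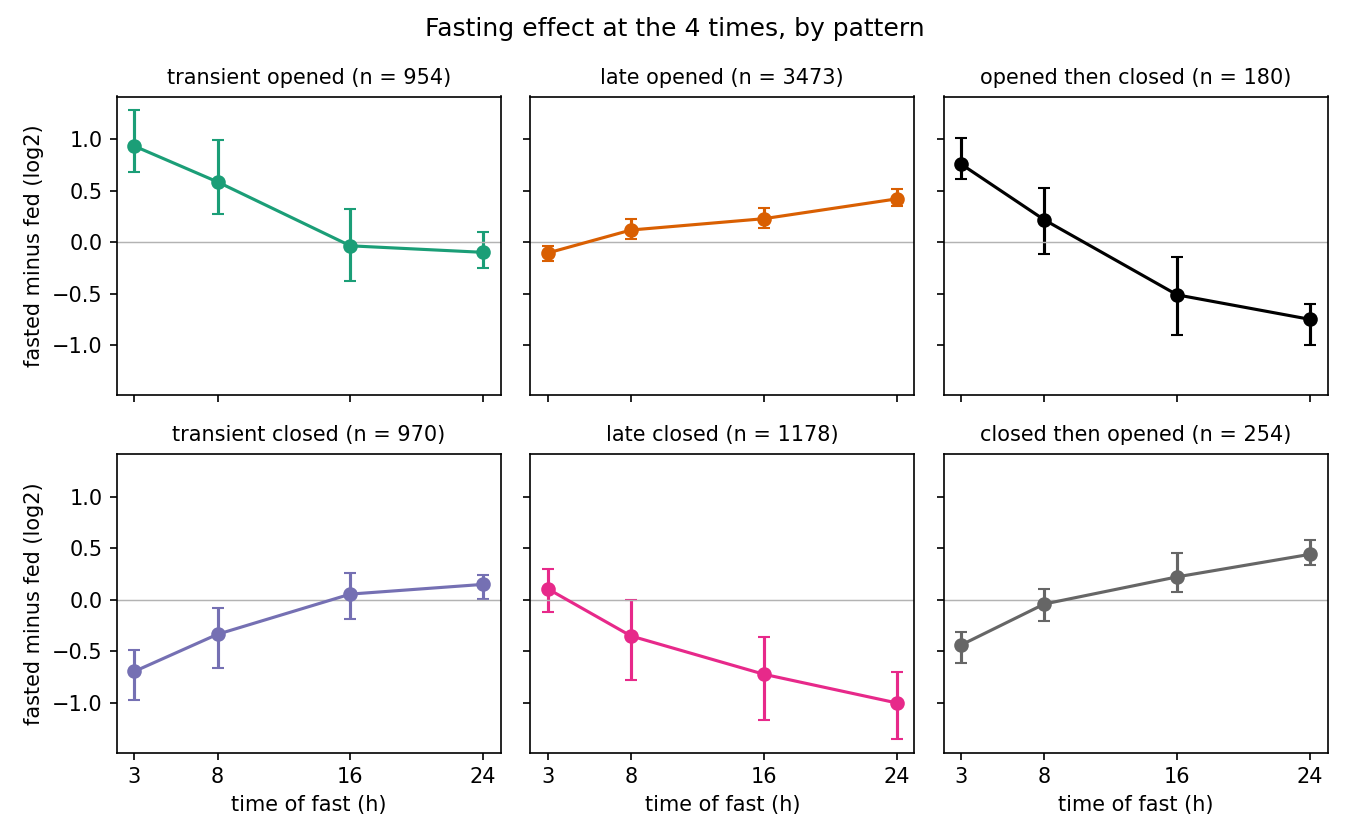
Median fasting effect (fasted minus fed, log2) at 3, 8, 16 and 24 h of the peaks of 6 patterns; whiskers span the middle 50% of peaks. The pattern of a peak was set by its values at 3 h and 24 h, while the points at 8 h and 16 h come from other mice and lie between.

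Either fasted or fed mice can move a difference of this kind. Fasted mice at 24 h had more reads than fasted mice at 3 h at 6818 peaks (14.6%) and fewer at 3301 (7.05%), and fed mice at 24 h had more than fed mice at 3 h at 1507 (3.22%) and fewer at 1134 (2.42%). Of the 1500 peaks with an effect lower by at least 1, fasted mice alone had fallen between 3 h and 24 h at 841 (56.1%), fed mice alone had risen at 366 (24.4%) and both at 135. Of the 595 higher ones, fasted mice alone had risen at 279 (46.9%), fed mice alone had fallen at 148 (24.9%) and both had moved at 81 (13.6%). These calls use the same mice as the difference and describe it. Alone means that the other mice were not called, which does not show that they stayed the same. P-values were adjusted within each comparison, and fewer peaks were called in fed mice. Over the 954 transiently opened peaks the median change from 3 h to 24 h was -0.38 in fasted and 0.61 in fed mice. Over the 1178 late closed peaks it was -0.83 in fasted and 0.26 in fed mice.

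**Figure D3:**
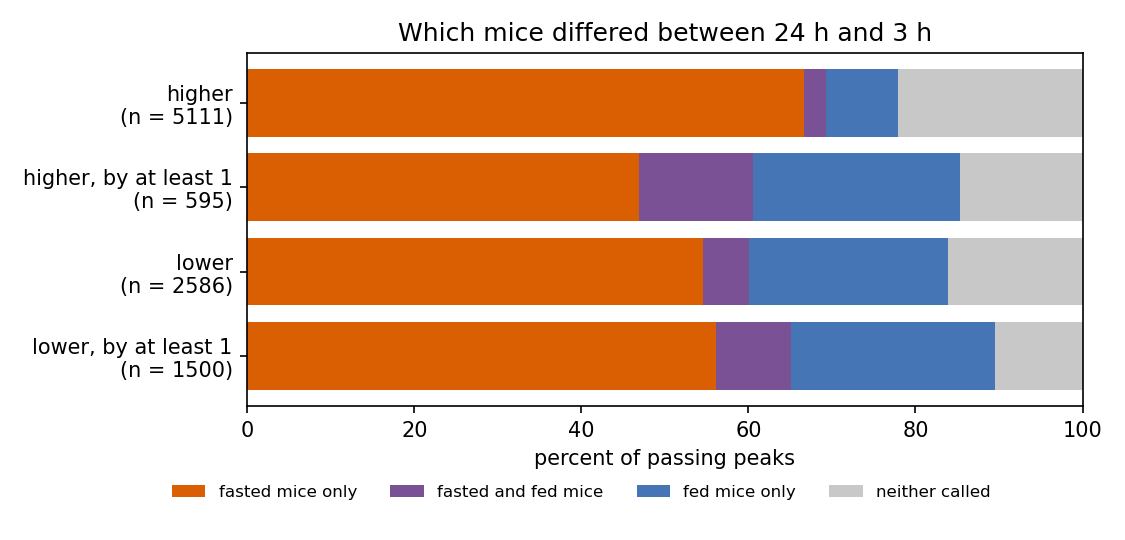
Share of passing peaks (percent) at which fasted mice, fed mice, both or neither differed between 24 h and 3 h in the direction that makes the difference. Of the peaks lower by at least 1, 24.4% were called in fed mice alone.

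Named transiently opened peaks were those of Mt2, Cyp4a32, Cipc and Ppp1r3g. The Mt2 peak 138 bp before the start site (chr8:94172380-94172580) had 35.1, 34.1, 18.8 and 41.8 reads in fasted and 11.01, 11.9, 49.0 and 10.5 in fed mice at 24 h. At 3 h it had 104, 70.5, 97.1 and 71.1 reads in fasted and 1.93, 5.90, 4.11 and 1.45 in fed mice. Fasted and fed mice were far apart at 3 h and overlapped at 24 h, where the third fed mouse was above every fasted one. The effect was 0.85 ± 0.40 at 24 h and 4.10 ± 0.40 at 3 h, a difference of -3.24 ± 0.56 (adjusted p = 0.00032) in limma. Without the third fed 24 h mouse the other fed 24 h mice, at 10.5 to 11.9 reads, lay below all fasted ones, the 24 h effect was 1.34 ± 0.38 (adjusted p = 0.0075) and the difference was -2.76. The peak then counts as opened at both times. At the neighbouring Mt1 gene, a peak 4267 bp past the start site was also opened at 3 h and not called at 24 h: the difference was -1.90 ± 0.25 (adjusted p = 5.3e-06), with 106 reads in the same fed mouse against 56.3 to 63.9 in the other fed 24 h mice. The adjoining Mt2 peak 60 bp past the start site was opened at both times: it had 134, 156, 104 and 174 reads in fasted and 71.6, 32.6, 112 and 56.0 in fed mice at 24 h, against 144 to 180 in fasted and 3.63 to 17.1 in fed mice at 3 h. Its effect was 1.14 ± 0.31 at 24 h (adjusted p = 0.0041) and 3.82 ± 0.31 at 3 h (adjusted p = 2.5e-10), a difference of -2.68 ± 0.43 (adjusted p = 0.00014). Over all 5 tested Mt2 peaks the difference ran from -3.24 to -1.20.

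Ppp1r3g encodes a subunit that directs protein phosphatase 1 to glycogen. Its peak 7815 bp upstream (chr13:35959991-35960191) had 35.7 to 56.5 reads in fasted and 23.1 to 61.3 in fed mice at 24 h, against 45.0 to 88.8 in fasted and 4.80 to 7.25 in fed mice at 3 h. The level of fed mice differed by 2.27 between 24 h and 3 h (adjusted p = 0.0020), and that of fasted mice by -0.59 (adjusted p = 0.37). The difference of effects was -2.85 ± 0.65 (adjusted p = 0.0039). Cyp4a32 belongs to the fatty acid omega-hydroxylases, whose near-identical copies can share reads, and its intronic peak had a difference of -3.19 ± 0.53 (adjusted p = 0.00018). Cipc encodes a repressor that binds CLOCK, and its peak 14284 bp upstream had one of -2.99 ± 0.50 (adjusted p = 0.00023). At both, fasted mice had lower levels at 24 h than at 3 h (-1.49 and -1.63) and fed mice higher ones (1.70 and 1.36).

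Of the 4 named transiently closed peaks, the largest differences lay near Angptl8 and Fasn. Angptl8 encodes an insulin-induced secreted protein that takes part in the inhibition of lipoprotein lipase. Its peak 2591 bp past the start site (chr9:21838001-21838201), within Dock6, had 4.82, 10.4, 3.24 and 7.37 reads in fasted and 7.34, 7.16, 7.48 and 21.9 in fed mice at 24 h. At 3 h it had 1.63, 2.50, 1.09 and 6.32 reads in fasted and 79.6, 93.7, 65.1 and 96.5 in fed mice. Fed mice at 3 h stood far above all others; at 24 h fed and fasted mice overlapped. The difference was 3.67 ± 0.62 (adjusted p = 0.00022), of which fed mice supplied -2.84 and fasted mice 0.83. Of 16 tested peaks within 50 kb nearest to Angptl8, 7 had a difference of at least 1, some of them adjacent windows of one site.

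The peak named for Dus1l, a tRNA-modifying enzyme, lay 1924 bp from Fasn, the gene of fatty acid synthase. It had 1.90 to 6.55 reads in fasted and 3.40 to 8.75 in fed mice at 24 h, against 1.00 to 3.95 in fasted and 33.2 to 75.7 in fed mice at 3 h (difference 3.10 ± 0.54, adjusted p = 0.00029). Fed mice were also high at 3 h at Slc35b1, an endoplasmic reticulum nucleotide transporter (2.90 ± 0.44, adjusted p = 7.2e-05). The same held at Trim7, a ubiquitin ligase that binds glycogenin (2.73 ± 0.39, adjusted p = 2.3e-05). At Slc35b1 and Trim7, unlike at the Dus1l peak, fasted mice also had clearly higher levels at 24 h than at 3 h (1.38 and 1.53, against 0.32). Fed mice there had lower ones (-1.52 and -1.20). At G0s2, an inhibitor of the lipase ATGL that was chosen after its values were seen, 5 of 9 peaks were higher by 1.01 to 2.36, with effects of 0.11 to 0.57 at 24 h and of -2.05 to -0.87 at 3 h.

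**Figure D4:**
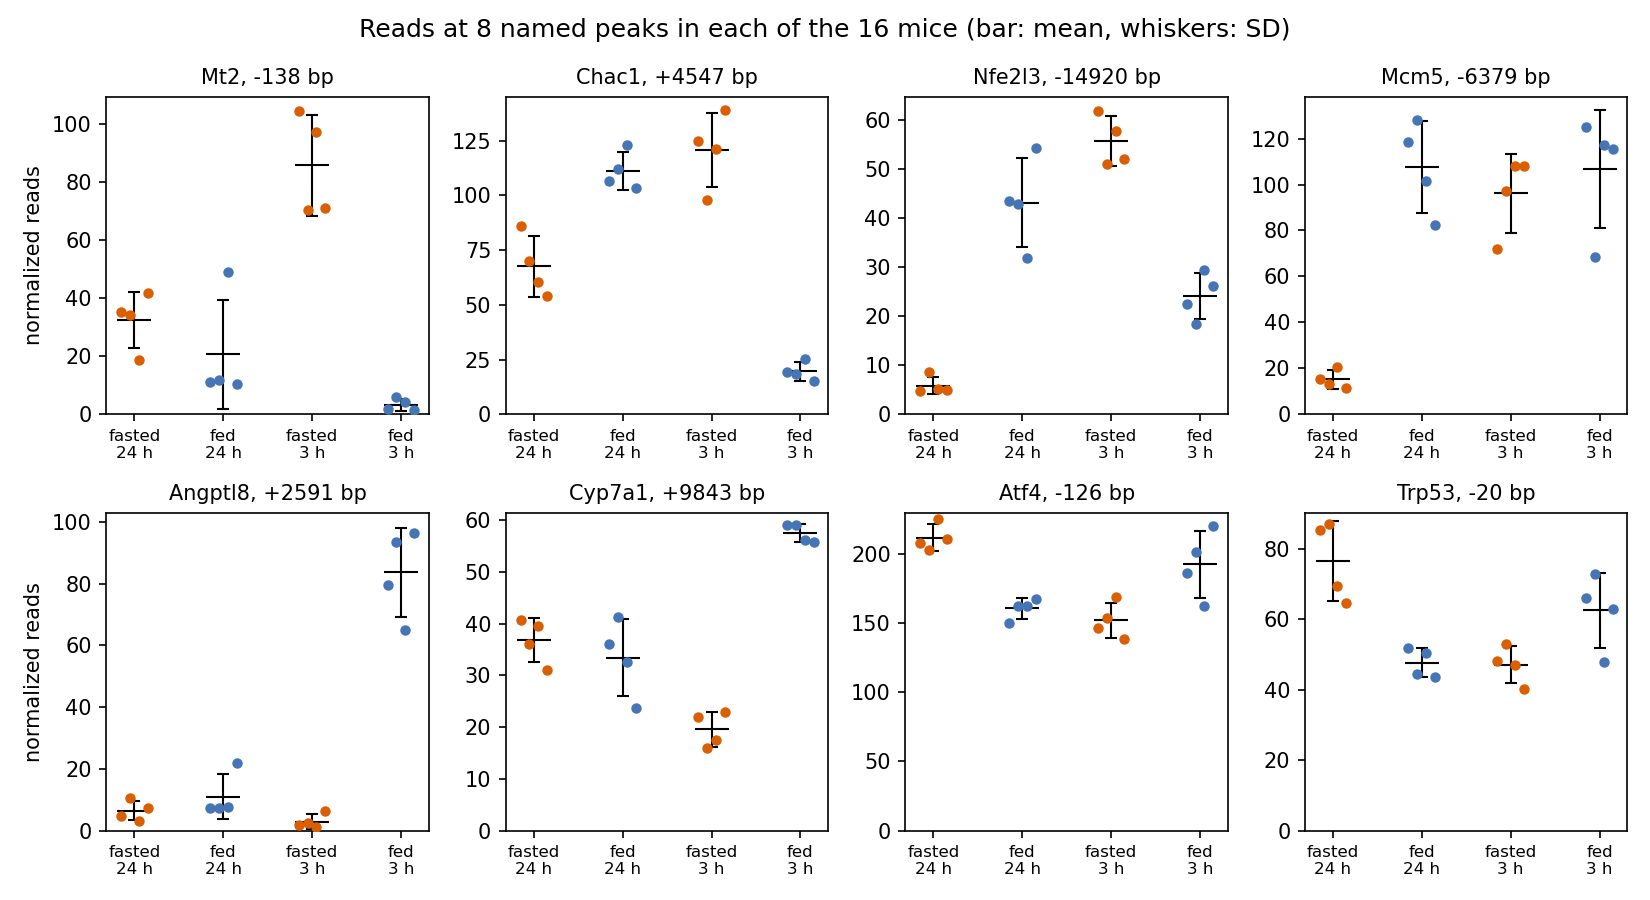
Normalized reads at 8 named peaks in each mouse (dots), with group mean and SD; orange marks fasted and blue fed mice. Angptl8 is high in fed 3 h mice, Mcm5 low in fasted 24 h mice, and at Chac1 fed mice are high at 24 h and low at 3 h.

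Among late closed peaks, the peak named for Mcm5, a subunit of the replicative helicase (chr8:75103030-75103230), lay 2437 bp from Hmox1, the gene of heme oxygenase 1. It had 15.1, 13.3, 20.8 and 11.5 reads in fasted and 119, 128, 101 and 82.2 in fed mice at 24 h. At 3 h it had 71.7, 97.0, 108 and 108 reads in fasted and 125, 68.6, 117 and 115 in fed mice. All fasted 24 h mice were below all others, and the 3 h groups overlapped. The difference was -2.56 ± 0.43 (adjusted p = 0.00021). Ginm1, a membrane protein gene (-3.02 ± 0.55, adjusted p = 0.00052), Mknk2, a kinase that phosphorylates eIF4E (-2.58 ± 0.49, adjusted p = 0.00076), and Bdnf, a neurotrophin (-2.43 ± 0.42, adjusted p = 0.00028), also had late closed peaks. Their 24 h effects were -2.46, -2.33 and -2.44 and their 3 h effects 0.55, 0.25 and -0.01. At Mknk2 a fasted 24 h mouse, at 24.6 reads, lay above a fed 3 h mouse, at 22.9.

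Some peaks were opened at 3 h and closed at 24 h. The peak 14920 bp before Nfe2l3, which encodes a CNC transcription factor related to NRF2 (chr6:51417649-51417849), had 4.82, 8.53, 5.19 and 4.91 reads in fasted and 43.4, 43.0, 31.97 and 54.2 in fed mice at 24 h. At 3 h it had 61.9, 51.0, 57.8 and 52.1 reads in fasted and 22.5, 18.4, 29.5 and 26.1 in fed mice. Neither pair of groups overlapped, and the order of fasted and fed mice was opposite at the 2 times. The effect was -2.52 ± 0.22 at 24 h and 1.16 ± 0.22 at 3 h, a difference of -3.68 ± 0.31 (adjusted p = 1.6e-09). Chac1 encodes an enzyme that degrades glutathione. Its peak (chr2:119355689-119355889) had 86.0, 70.1, 60.3 and 54.0 reads in fasted and 106, 112, 123 and 103 in fed mice at 24 h, and 125, 98.0, 121 and 139 in fasted and 19.3, 18.4, 25.4 and 15.2 in fed mice at 3 h. Here most of the difference of -3.24 ± 0.34 (adjusted p = 3.2e-07) lay in fed mice, which rose by 2.41 between 3 h and 24 h. Myo10, an unconventional myosin (-3.08 ± 0.38, adjusted p = 3.5e-06), and Cyp2e1, a cytochrome P450 of ethanol and ketone oxidation (-2.97 ± 0.58, adjusted p = 0.0011), followed. Without the third fed 24 h mouse the 24 h effect at Cyp2e1 was -1.08 ± 0.44 (adjusted p = 0.055), and the peak is then not called at 24 h.

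Other peaks were closed at 3 h and opened at 24 h. The peak named for Cln8, an endoplasmic reticulum protein, lies in an intron of Dlgap2 and had 43.4 to 59.2 reads in fasted and 20.4 to 33.0 in fed mice at 24 h, against 18.5 to 26.9 in fasted and 41.8 to 68.6 in fed mice at 3 h (difference 2.09 ± 0.33, adjusted p = 0.00013). Hamp encodes hepcidin, the hormone that limits iron uptake. Its peak 2599 bp past the start site had 51.6 to 66.8 reads in fasted and 27.8 to 39.1 in fed mice at 24 h, against 11.4 to 42.5 in fasted and 35.7 to 59.7 in fed mice at 3 h, where the groups overlapped (1.82 ± 0.40, adjusted p = 0.0029). Wfikkn2, an inhibitor of myostatin (1.89 ± 0.33, adjusted p = 0.00033), and Npnt, a matrix protein (1.89 ± 0.38, adjusted p = 0.0015), completed the set.

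Late opened peaks were mostly promoters, with a median effect of 0.42 at 24 h. Of the 3473, 71.2% lay within 1 kb of a start site, against 34.9% of all tested peaks and 7.30% of the late closed ones. The late opened peaks also had more reads, with a median of 118 in fed 3 h mice against 39.9 in the late closed ones. Their median difference was 0.52, against -1.10. The part of read level in this split was not tested. Over the late opened peaks the median change from 3 h to 24 h was 0.36 in fasted and -0.16 in fed mice. The largest difference among the named ones was away from a promoter: the peak named for Fubp3, 1218 bp from Ass1, the urea cycle gene of argininosuccinate synthase, had 99.5 to 130 reads in fasted and 19.0 to 50.9 in fed mice at 24 h, against 21.5 to 88.4 in fasted and 53.5 to 98.8 in fed mice at 3 h (difference 2.28 ± 0.56, adjusted p = 0.0067). Its effect was -1.11 at 8 h, -1.01 at 16 h and 1.83 at 24 h. Rtn4rl1, a receptor of the Nogo family (2.02 ± 0.35, adjusted p = 0.00031), Styxl1, a phosphatase-like protein whose intronic peak lies 1988 bp from Mdh2 (1.98 ± 0.36, adjusted p = 0.00059), and Cbfa2t3, a corepressor (1.84 ± 0.43, adjusted p = 0.0050), came next. At Cbfa2t3 the effect was -0.60 at 3 h, 2.46 at 8 h, 2.66 at 16 h and 1.24 at 24 h. There the level of fed mice differed by -1.96 between 24 h and 3 h (adjusted p = 9.98e-05 in limma). That of fasted mice differed by -0.12 (adjusted p = 0.81).

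Over the 16351 peaks within 1 kb of a start site, 18.3% had a higher and 1.87% a lower fasting effect at 24 h, with a median difference of 0.24. Over the 30476 other peaks the shares were 6.95% and 7.48% and the median 0.05, and 1.66% and 4.56% passed with a difference of at least 1. These shares depend on how libraries are scaled. The median difference over all peaks was 0.13 as deposited, 0.07 after median centring, 0.04 after quantile normalization, -0.01 in edgeR and 0.00 in DESeq2. Promoter peaks had more higher than lower calls under each of these scalings, from 975 against 592 in edgeR to 2992 against 306 as deposited, and other peaks had more lower than higher calls under each, from 3485 against 869 in edgeR to 2280 against 2119 as deposited. Among peaks with a mean of at least 50 reads, however, 1352 of the other peaks were higher and 840 lower, and without the first fasted 3 h mouse 2211 were higher and 2163 lower.

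Promoters allow a look at sequence. The 250 upstream bases of 7373 of 27025 RefSeq promoters were overlapped by a tested peak by at least 100 bases, 1773 of them with a higher and 70 with a lower effect at 24 h. The CCAAT box, in either strand, was present in 54.5% of promoters with a higher effect, 27.1% of those with a lower one, 37.7% of those not called and 34.5% of all promoters. The higher ones also had more reads, with a median of 133 in fed 3 h mice against 81.7 in those not called. Among the 1843 promoters with a mean of over 154 reads the CCAAT box was in 60.6% of higher and 45.4% of uncalled promoters, and among the 1844 with at most 59.5 reads in 26.4% and 27.9%. The median difference was 0.32 with and 0.26 without the box, and 0.17 and 0.12 in edgeR. Of the other motifs searched on both strands, the GC box GGGCGG was in 73.0% of higher and 64.7% of uncalled promoters (32.9% of all). The E-box CACGTG was in 9.87% and 9.48% (6.05% of all), the metal response element TGCACNC in 10.4% and 10.5% (10.2% of all) and TGCGCNC in 27.2% and 24.1% (12.6% of all). The heat shock pair GAANNTTC was in 5.30% and 4.01% (6.78% of all). The remaining motifs of the 12 searched were in a smaller share of higher than of uncalled promoters. The nuclear receptor half-site AAGGTCA was in 1.86% and 3.36% (4.05% of all). The cyclic AMP response element TGACGTCA was in 2.93% and 3.53% (1.62% of all). The forkhead motif TGTTTAC was in 1.86% and 2.12% (3.09% of all), and the glucocorticoid receptor half-site AGAACA in 9.31% and 9.49% (16.2% of all). The C/EBP-ATF element TGATGNAA was in 1.35% and 1.65% (3.53% of all), and the D-box TTATGTAA in 0.39% and 0.58% (0.86% of all). A match of letters is a description and not a bound site.

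At the start sites shown above, the differences were 0.46 to 1.04 apart from Mt2. The Atf4 peak had 208, 203, 226 and 211 reads in fasted and 150, 162, 163 and 168 in fed mice at 24 h, and 147, 154, 169 and 139 in fasted and 187, 201, 162 and 221 in fed mice at 3 h. Its groups were separate at 24 h and overlapped at 3 h (difference 0.73 ± 0.13, adjusted p = 0.00033). Trp53 had 85.3, 87.2, 69.4 and 64.7 reads in fasted and 52.0, 44.5, 50.3 and 43.7 in fed mice at 24 h, and 48.1, 53, 46.9 and 40.3 in fasted and 66.1, 73.0, 48.0 and 63.1 in fed mice at 3 h (1.04 ± 0.18, adjusted p = 0.00033); the peak also overlaps Wrap53. A peak 7910 bp before Mdm2, the ubiquitin ligase of p53, had the same pattern (0.92 ± 0.20, adjusted p = 0.0025). Mpc2 had 370 to 435 reads in fasted and 284 to 339 in fed mice at 24 h, against 300.5 to 348 in fasted and 326 to 349.6 in fed mice at 3 h (0.46 ± 0.10, adjusted p = 0.0023). Ctsd had 213 to 239 reads in fasted and 162 to 182 in fed mice at 24 h, against 171 to 187 in fasted and 182 to 218 in fed mice at 3 h (0.51 ± 0.10, adjusted p = 0.0012). Mpc2 and Ctsd no longer passed after quantile normalization, with 0.18 (adjusted p = 0.081) and 0.25 (adjusted p = 0.069).

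Within 50 kb of 24 glucocorticoid response genes lay 214 peaks. The fasting effect was higher at 24 h at 13 of them (6.07%) and lower at 27 (12.6%). Of the 27, 21 were lower by at least 1. Over all peaks the shares were 10.9% higher and 5.52% lower. The median difference of the list was -0.06, against 0.13 over all peaks. At both times most called peaks of the list were opened: 97 opened and 8 closed at 24 h, and 90 opened and 6 closed at 3 h. Over all tested peaks 25.3% were opened and 11.4% closed at 24 h, and 11.3% and 10.3% at 3 h. Lower peaks were at the neighbouring genes Mt2 (5 of 5, some adjoining) and Mt1 (2 of 3), which made up a good part of the 27. Others were at Fkbp5, an immunophilin that binds the receptor (3 of 11, with 1 higher), Klf9, a Krüppel-like factor (3 of 10), and Zbtb16, a zinc finger repressor (3 of 13). Igfbp1, an IGF-binding protein (2 of 4), and Ddit4 (2 of 11, with 1 higher) followed. Errfi1 (2 of 17) and Gadd45b (2 of 12, with 1 lower) had the most higher peaks. The counts were 9 higher and 28 lower after median centring and 4 and 34 in edgeR. Over all 46827 tested peaks they were 3413 and 2896 after median centring and 1844 and 4077 in edgeR.

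Among 87 peaks of 22 heat shock and unfolded protein response genes, 29 had a higher effect (33.3%) and 8 a lower one (9.20%). Over all peaks the shares were 10.9% and 5.52%. The median difference of the list was 0.32. Of the list's 38 promoter peaks 22 were higher, against 18.3% of all promoter peaks. Higher peaks included 5 of 7 at Hspa8, a constitutive HSP70 chaperone, 3 of 5 at Hsp90ab1, 3 of 9 at Xbp1, a transcription factor of the unfolded protein response, and 2 of 4 at Bag3, an HSP70 cochaperone. Herpud1, which takes part in degradation at the endoplasmic reticulum, went the other way: 6 of 16 peaks were lower, and the one 20960 bp upstream, in an intron of Slc12a3, had 15.6 to 30.3 reads in fasted and 28.1 to 39.5 in fed mice at 24 h, against 28.0 to 56.2 in fasted and 5.08 to 12.2 in fed mice at 3 h (-2.43 ± 0.42, adjusted p = 0.00032). The list had 26 higher and 8 lower peaks after median centring and 21 and 10 in edgeR, where 1844 of all peaks were higher and 4077 lower.

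**Figure D5:**
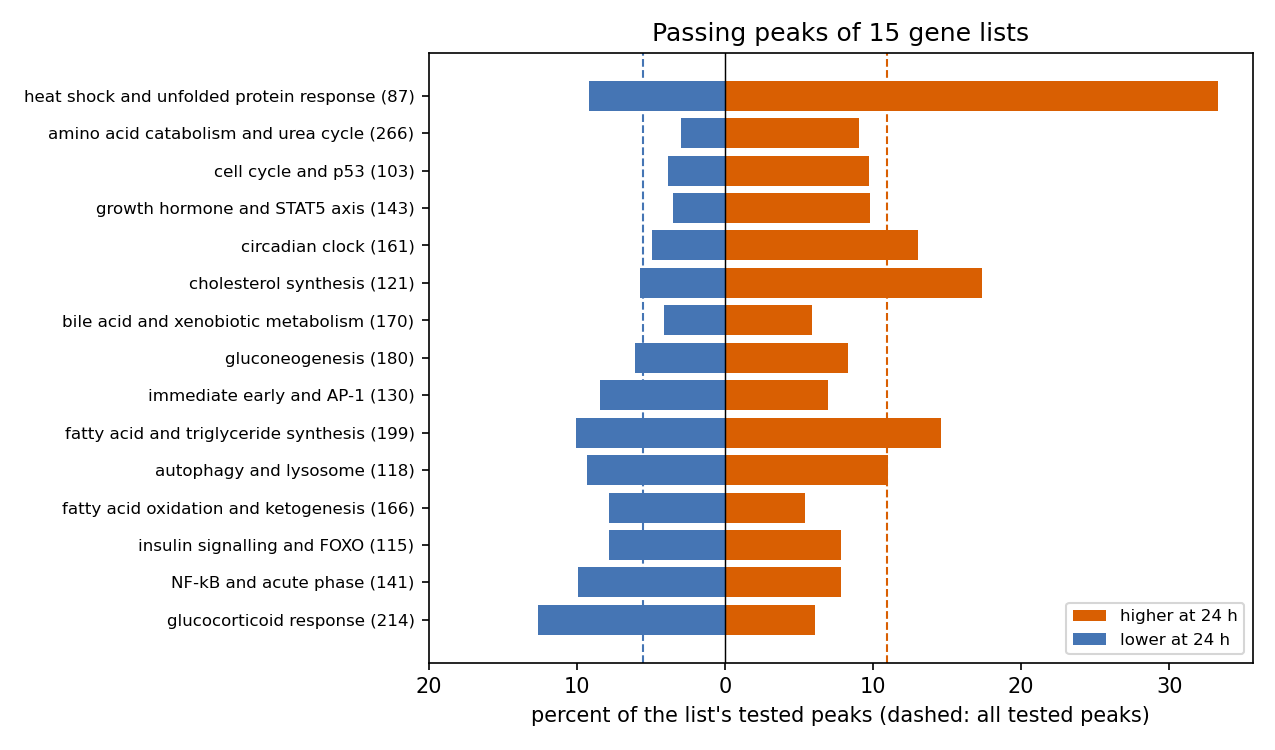
Percent of the tested peaks of 15 gene lists (number in brackets) with a higher or a lower fasting effect at 24 h; dashed lines give the shares over all tested peaks, 10.9% and 5.52%. The heat shock list has 29 of 87 peaks higher and the glucocorticoid list 27 of 214 lower.

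Genes of fat synthesis went both ways. Of 199 peaks of 23 fatty acid and triglyceride synthesis genes, 29 were higher (14.6%) and 20 lower (10.1%). Over all peaks the shares were 10.9% and 5.52%. The 10 of Angptl8 made up a large part of the 29. In edgeR 15 were higher and 26 lower, where 1844 of all 46827 tested peaks were higher and 4077 lower. Srebf1 encodes SREBP-1, which drives lipogenic genes; 4 of its 11 peaks were lower and 1 higher. The one 18989 bp upstream, in the 3′ UTR of Tom1l2, had 6.88, 17.1, 16.2 and 10.6 reads in fasted and 22.0, 31.8, 31.97 and 42.0 in fed mice at 24 h, and 52.2, 43.5, 44.7 and 36.3 in fasted and 24.4, 21.4, 22.6 and 30.5 in fed mice at 3 h. Fasted mice were below fed ones at 24 h and above them at 3 h (difference -2.03 ± 0.34, adjusted p = 0.00018). Thrsp, a lipogenic gene, had 4 of 7 peaks lower. Of 121 peaks of 22 cholesterol synthesis genes, 21 were higher (17.4%) and 7 lower (5.79%). Among the list's 38 promoter peaks 15 were higher and 0 lower, against 18.3% and 1.87% of all promoter peaks. Acat2, a thiolase of the pathway, had a peak at its start that was closed at 3 h and opened at 24 h (0.73 ± 0.14, adjusted p = 0.00073). Insig1, which holds SREBPs in the endoplasmic reticulum, had 2 of 22 peaks higher and 2 lower. A lower one 34146 bp upstream was closed at both times and more so at 24 h. It had 19.0 to 29.5 reads in fasted and 94.5 to 142 in fed mice at 24 h, against 71.9 to 106 in fasted and 95.1 to 173 in fed mice at 3 h (-1.63 ± 0.26, adjusted p = 0.00014). In edgeR the cholesterol list had 8 higher and 9 lower peaks, against 1844 higher and 4077 lower of all peaks.

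Of 180 gluconeogenesis peaks 15 were higher (8.33%) and 11 lower (6.11%), and in edgeR 4 were higher and 14 lower. Of 166 fatty acid oxidation and ketogenesis peaks 9 were higher (5.42%) and 13 lower (7.83%), against 10.9% and 5.52% of all peaks as deposited. Their counts were 3 and 13 after median centring and 1 and 19 in edgeR. All 46827 tested peaks had 3413 higher and 2896 lower after median centring, and 1844 and 4077 in edgeR. Pck1, the gene of the gluconeogenic enzyme PEPCK, had 4 of 12 peaks lower, while Fbp1, fructose bisphosphatase, had 3 of 13 higher. Slc2a2 encodes the glucose transporter GLUT2. Its peak 15780 bp upstream had 63.9 to 97.3 reads in fasted and 116 to 161 in fed mice at 24 h, against 100.3 to 117 in fasted and 94.4 to 112 in fed mice at 3 h (-0.92 ± 0.18, adjusted p = 0.0011). Acadm encodes the medium-chain acyl-CoA dehydrogenase. Its intronic peak had 20.1 to 44.5 reads in fasted and 32.4 to 80.3 in fed mice at 24 h, against 39.1 to 74.5 in fasted and 15.5 to 30.2 in fed mice at 3 h (-2.13 ± 0.35, adjusted p = 0.00018). Trib1, a pseudokinase gene linked to blood lipids, had a transiently opened peak (-1.64 ± 0.32, adjusted p = 0.0010).

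Of 115 insulin signalling and FOXO peaks 9 were higher and 9 lower (7.83% each), against 10.9% and 5.52% of all peaks. In edgeR 2 were higher and 11 lower. Of 266 peaks of amino acid catabolism and the urea cycle 24 were higher (9.02%) and 8 lower (3.01%). Their counts were 15 and 9 after median centring and 8 and 18 in edgeR. All 46827 tested peaks had 3413 and 2896 after median centring and 1844 and 4077 in edgeR. A peak 5649 bp before Ass1 had 211 to 219.5 reads in fasted and 143 to 161 in fed mice at 24 h, against 154 to 195 in fasted and 191 to 221 in fed mice at 3 h, with no overlap at 24 h (0.70 ± 0.13, adjusted p = 0.00090). Slc25a25, a mitochondrial ATP-Mg/phosphate carrier, was higher at its promoter (0.62 ± 0.13, adjusted p = 0.0015), which overlaps Naif1.

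In bile acid metabolism, Cyp7a1 encodes the rate-limiting enzyme and Nr0b2 the repressor SHP. A Cyp7a1 peak in the 3′ UTR (chr4:6265688-6265888) had 40.6, 36.0, 39.6 and 31.1 reads in fasted and 36.1, 41.4, 32.7 and 23.6 in fed mice at 24 h, and 22.0, 16.0, 17.5 and 22.9 in fasted and 59.0, 59.0, 56.2 and 55.9 in fed mice at 3 h. The start site of Nr0b2 had 31.7, 37.9, 32.4 and 32.7 reads in fasted and 47.1, 50.1, 31.97 and 70.0 in fed mice at 24 h, and 66.0, 37.0, 57.8 and 68.7 in fasted and 32.1, 17.0, 26.7 and 27.6 in fed mice at 3 h. At 3 h, then, fasted mice were lower at Cyp7a1 and higher at Nr0b2, with no overlap, and at 24 h the groups overlapped at both. The differences were 1.63 ± 0.27 (adjusted p = 0.00022) for Cyp7a1 and -1.58 ± 0.37 (adjusted p = 0.0047) for Nr0b2. The whole list of 170 bile acid and xenobiotic peaks had 10 higher (5.88%) and 7 lower (4.12%), against 10.9% and 5.52% of all peaks. In edgeR 5 were higher and 15 lower, where 1844 of all 46827 tested peaks were higher and 4077 lower.

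Clock genes had 21 higher (13.0%) and 8 lower (4.97%) of 161 peaks, against 10.9% and 5.52% of all peaks. In edgeR they had 8 higher and 14 lower, where 1844 of all 46827 tested peaks were higher and 4077 lower. Per2 (5 of 15 peaks), Arntl (3 of 6) and Tef (3 of 8) had higher peaks and 0 lower ones. Hlf (2 of 15) and Nfil3 (2 of 12) had lower peaks and 0 higher ones. Per3, a period gene, had 2 of 4 peaks higher and 1 lower. The lower one, at its promoter, had 28.9, 30.3, 39.6 and 25.4 reads in fasted and 64.8, 66.8, 66.0 and 57.7 in fed mice at 24 h. At 3 h it had 36.7, 46.5, 29.5 and 46.6 in fasted and 28.9, 19.2, 25.4 and 26.1 in fed mice. Fed mice rose by 1.30 between 3 h and 24 h (adjusted p = 0.00091), while fasted mice differed by -0.33 (adjusted p = 0.34). The difference of effects was -1.64 ± 0.35 (adjusted p = 0.0021). Tef, a clock output factor, was higher at its start (0.52 ± 0.12, adjusted p = 0.0032).

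Of 130 immediate early and AP-1 peaks 9 were higher (6.92%) and 11 lower (8.46%), against 10.9% and 5.52% of all peaks. The peak 21936 bp before Fos, a subunit of AP-1, had 31.7, 27.5, 26.0 and 19.6 reads in fasted and 29.4, 28.6, 29.9 and 25.4 in fed mice at 24 h, and 44.8, 41.5, 41.5 and 35.5 in fasted and 10.9, 12.5, 15.1 and 13.8 in fed mice at 3 h (-1.63 ± 0.28, adjusted p = 0.00028). Groups were apart at 3 h and overlapped at 24 h, and the same held at Nr4a1, a nuclear receptor (-1.50 ± 0.25, adjusted p = 0.00021). Of 141 NF-kB and acute phase peaks 11 were higher (7.80%) and 14 lower (9.93%). Tlr2, a receptor for bacterial lipoproteins, had a peak with 24.6 to 37.0 reads in fasted and 79.6 to 91.5 in fed mice at 24 h, against 50.5 to 61.0 in fasted and 44.3 to 69.9 in fed mice at 3 h (-1.32 ± 0.24, adjusted p = 0.00043). Nfkb2, an NF-kB subunit, also had a late closed peak (-1.59 ± 0.28, adjusted p = 0.00033).

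Of 118 autophagy and lysosome peaks 13 were higher and 11 lower (8 and 11 after median centring, 3 and 15 in edgeR), among the lower an intronic peak of Ulk1, the kinase that starts autophagy (-1.25 ± 0.24, adjusted p = 0.00075). Of 143 growth hormone and STAT5 peaks 14 were higher (9.79%) and 5 lower (3.50%). Their counts were 7 and 5 after median centring and 3 and 5 in edgeR. All 46827 tested peaks had 3413 and 2896 after median centring and 1844 and 4077 in edgeR. Cux2, a factor more active in female liver, was lower (-1.96 ± 0.41, adjusted p = 0.0018), and Onecut1, a liver factor, higher (0.76 ± 0.16, adjusted p = 0.0019). Of 103 cell cycle and p53 peaks 10 were higher (9.71%) and 4 lower (3.88%). Over all peaks the shares were 10.9% and 5.52%.

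Large differences gathered at some genes, listed here after their values were seen. Peaks higher by at least 1 belonged to 354 genes and those lower to 714, within 50 kb. At least 4 such peaks were found at 11 genes in the higher and 12 in the lower direction. Lower were 5 of 19 peaks at Slc25a33, a mitochondrial pyrimidine carrier (-2.84 to -1.08), 4 of 13 at Upp2, a uridine phosphorylase (-2.45 to -1.04), 5 of 11 at Tbl1xr1, a corepressor subunit (-1.43 to -1.01), and 4 of 28 at Prkag2, a subunit of AMP-activated kinase (-1.35 to -1.06). Some genes of the higher set, such as Vmn1r184 (7 of 7) and Hist1h4h (4 of 10), belong to families with near-identical copies that can share reads.

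In macrophage nuclei, from other mice and a table normalized separately, the same difference of effects passed at 146 of 30170 peaks (0.484%), 28 higher and 118 lower. Of the 2095 large hepatocyte peaks, 136 were overlapped by a macrophage peak, and 4 of these passed there with the same sign and 0 with the opposite one. Of the named hepatocyte peaks, 12 were overlapped by a macrophage peak. The macrophage peak at Mt1 had 121 ± 15.1 reads in fasted and 103 ± 6.77 in fed mice at 24 h, and 115 ± 21.7 in fasted and 87.3 ± 9.05 in fed mice at 3 h (SD, n = 4 each), with a difference of -0.15 ± 0.18 (adjusted p = 0.73). The smallest adjusted p of the 12 in limma was at Tlr2 (-0.50 ± 0.13, adjusted p = 0.058), against -1.32 in hepatocytes. At Herpud1 (0.08) and Trp53 (-0.07) the sign was opposite to that in hepatocytes. Whether the fasting effects differ between the cell types was not tested.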

How the data were processed

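Nuclei captured on beads from livers of HEP-INTACT mice were profiled by paired-end ATAC-seq, per the labels. The authors deposited 1 table of hepatocyte peaks with a signal value per mouse, named normalized counts, and the gene of the nearest TSS. BWA 0.7.5a-r405, SAMtools, HOMER, DESeq2 and mm10 are named in the submitters' processing notes, without their roles. All values of a column were whole multiples of 1 step (tolerance 0.01 of a read), which is what whole reads scaled once per column give; the scaling used is not given in the sources used here. The authors also deposited log2 fold changes and adjusted p-values for each time of fasting, and a score per peak, per the file headers; these were not used.

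Log2 of the signal plus 2 was fitted in limma 3.58.1 (R 4.3.3) with 8 group means over all 32 hepatocyte mice and a trend in the prior variance, after leaving out the 5 of 46832 peaks that averaged under 10. P-values were adjusted by Benjamini-Hochberg over all 46827 peaks of a comparison, with a threshold of 0.05, two-sided. Whether the mice of a group are independent beyond their labels is not stated, so p-values measure the spread between these mice. The test was tested on simulated data with known differences.

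Named peaks are the 4 of largest difference in each of 6 patterns and up to 2 of smallest p per gene list, 1 per gene, within 100 kb (50 kb for lists), with predicted genes and small RNAs passed over. One of them is not reported here. The patterns, members, lists and tests were chosen with earlier results of these data known. Alternatives were other offsets, filters, scalings and variance models, fewer libraries, a block for runs of neighbouring library numbers, edgeR 4.0.16 and DESeq2 1.42.0 on the recovered reads, and each mouse left out. Macrophage mice were fitted in their own table in the same way.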

Additional observations from a re-analysis of the deposited data

Results flagged for a closer look

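The difference between the times itself met a test: 5111 peaks had a higher and 2586 a lower fasting effect at 24 h than at 3 h in limma. Among 212 groups of 4 mice at the named peaks, 10 held a mouse that stood apart from the other 3, where chance gives about 1 in 20. The third fed 24 h mouse stood apart at 4 peaks: at the Mt2 promoter it had 49.0 reads against 10.5 to 11.9 in the other fed 24 h mice, at Mt1 106 against 56.3 to 63.9, at Myo10 74.1 against 41.1 to 44.6, and at Cyp2e1 63.3 against 29.4 to 32.4. Without it the difference was -2.76 at Mt2 and -1.71 at Mt1, and all 4 differences still passed; Mt2 was then called opened at 24 h, and Cyp2e1 was no longer called closed there. At Angptl8 the fourth fed 24 h mouse had 21.9 reads against 7.16 to 7.48. At Cyp4a32 the third fed 3 h mouse had 8.23 reads against 2.21 to 3.21. At Trim7 the fourth fasted 3 h mouse had 10.3 reads, above the 5.71 of the next highest, and at Acat2 the third fasted 3 h mouse had 87.3 against 95.5 to 97.0. At Nfe2l3 the second fasted 24 h mouse had 8.53 reads against 4.82 to 5.19, and at Ctsd the fourth fasted 24 h mouse had 239 against 213 to 215.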

How the results depend on the processing

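All 53 named peaks (22 of them with a mean of at least 50) kept their direction under the 11 alternatives and the 16 omissions of 1 mouse, and all passed but Mpc2 and Ctsd after quantile normalization. Counts of peaks moved more. In edgeR, 1844 peaks were higher and 4077 lower (355 and 2391 by at least 1), and in DESeq2 1913 and 4017 (394 and 2363). After quantile normalization 2871 were higher, 1019 of them by at least 1. With a mean of at least 50 reads, 977 were lower, and 98 were higher and 307 lower by at least 1, with fewer peaks tested. An offset of 8 gave 302 higher and 975 lower by at least 1. With the 16 libraries alone, 4181 were lower. Leaving out 1 mouse gave 3211 to 5524 higher and 1845 to 2551 lower peaks, and 523 to 668 higher and 1205 to 1567 lower by at least 1. The count of higher peaks fell furthest without the second fed 3 h mouse (3211) and without the fourth fasted 24 h mouse (3232). Late opened peaks numbered 1968 after median centring. For these counts the cause was not tested beyond the number of peaks or mice. Peaks lower by at least 1 outnumbered those higher by at least 1 in every alternative named here. No paired analysis was possible because the labels give the mice no replicate numbers shared between groups. A fit with a block for 3 runs of library numbers, which are not pairs, gave 5070 higher and 2611 lower peaks. Peaks near 10 reads have wide errors at this depth.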
